A study of Homo sapiens with 9 samples.

Results

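The BCL2 family decides whether a cell opens the outer membrane of its mitochondria, the step that releases cytochrome c and starts the caspases. Pro-survival members (MCL1, BCL2 and BCL2L1, which encodes BCL-XL) hold the pore-forming effectors BAX and BAK1 in check, and the BH3-only proteins (PMAIP1 or NOXA, BBC3 or PUMA, BCL2L11 or BIM, BID and BIK) bind the pro-survival members or the effectors and tip the balance towards death. Several of these genes are controlled at transcription, and the mRNAs of MCL1 and PMAIP1 are known to be short-lived.

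These 10 genes were chosen by name, out of 26869 genes in a SLAM-Seq data set of MCF10A cells, a non-transformed line from human mammary epithelium. They took up 62 of its 56868 rows, which hold 29 distinct 3′ intervals, and each gene is described here by its interval with most reads. All cells were a JUN knockout given back JUN as a fusion with an auxin-inducible degron (JUN-AID), together with TIR1, the plant F-box protein that auxin needs to send the fusion to degradation. One group received DMSO for 1 h and then 100 µM 4-thiouridine (4sU) for 1 h, a second received 100 µM of the auxin indole-3-acetic acid (IAA) for 1 h before the same pulse, and the third was a control without 4sU, whose solvent the labels do not give. 4sU is taken into new transcripts, and iodoacetamide then modifies it so that sequencing gives C where the gene has T, so the T>C conversion rate, given here as a percent of T positions read as C, rises with the share of new RNA. JUN was removed as a protein, so its mRNA is no check of the depletion.

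Each group was labelled as 3 replicates, but the 3 IAA columns were identical in all 56868 rows and were counted as 1 library, whereas the 3 columns with DMSO and 4sU differed in 35279 rows. That left 7 distinct libraries of 18997637 to 24014195 reads. The study calls its replicates biological, and the labels do not say whether they came from separate cultures, so p-values measure the spread between these libraries. All 6 basal epithelial markers and all 6 luminal markers had reads in every library. The basal sum was 1681 to 3333 CPM and the luminal sum 340.0 to 454 CPM, CPM being the reads scaled to library size as deposited. LAMB3, at 850 to 2360 CPM, was the largest part of the basal sum, and KRT14 was at 3.63 to 10.6 CPM. Of the luminal markers, ESR1 was near the floor, at 0.105 to 0.470 CPM. Of 3 leukocyte markers PTPRC and CD3E were listed at 0 in each library and CD68 was at 1.68 to 7.93 CPM. Of 2 endothelial markers CDH5 was listed at 0 and PECAM1 was at 0.179 to 1.08 CPM. Of 3 fibroblast markers COL1A2 was listed at 0, COL1A1 was at 3.21 to 9.82 CPM and DCN at 3.66 to 7.29 CPM, a sum of 8.58 to 14.3 CPM.

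Among the BCL2 family members the 3′ intervals span very different untranslated regions, which is where these reads and conversions lie. In the annotation of GRCh37, the build the labels name as hg19, the interval of 9 members had the length of an annotated 3′ untranslated region (UTR) within 10 bases, from 410 bases in BIK to 5282 in BCL2. The BAX interval with most reads was longer, at 267 bases, and another of its intervals had the 165 bases of the annotated UTR, with the same CPM in 5 of the 7 libraries and 5.21 against 5.37 and 6.12 against 6.17 CPM in replicates 2 and 3 with DMSO and 4sU. BCL2L11 had 14 intervals, but those other than its 3 long ones reached at most 0.947 CPM, and the BCL2 interval of 98 bases reached at most 0.0499 CPM. AU-rich elements, which many unstable mRNAs carry in the 3′ UTR, were therefore searched for as the pentamer ATTTA and the nonamer TTATTTATT, on the transcript strand only. The nonamer holds a pentamer. It occurred in PMAIP1 and in BCL2 and in none of the other 8 members. Both sites are printed because PMAIP1 had the highest mean conversion rate of the family with the pulse, with the nonamer in capitals. The PMAIP1 site lies at chr18:57571193-57571222 on the plus strand, and the BCL2 site at chr18:60795585-60795614 on the minus strand, both in the 3′ UTR in GRCh37.
PMAIP1: aggaataattTTATTTATTttgcctattta
BCL2: aaaaaaagatTTATTTATTtaagacagtcc

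As background, the longest annotated 3′ UTR of each protein-coding gene was searched. A nonamer was present in 6.90% of those within 20% of the length of that of PMAIP1 and in 19.4% of those near the length of BCL2. The UTRs of the members were instead chosen to match the length of an interval. The pentamer occurred 13 times in BCL2, 10 times in MCL1, 8 times in BCL2L11, 5 times in PMAIP1, 3 times in BCL2L1, 2 times in BID and once in BIK, and was not found in BBC3, BAX or BAK1. A longer UTR offers more places for a match, and a match is only a description of these letters.

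The first question was which family mRNAs carried label above the background of cells without 4sU. PMAIP1, BBC3, MCL1, BCL2L1 and BID all rose in conversion rate with the pulse, and they are the 5 of the 10 members with at least 200 reads per library on average, the minimum for the test. Of all 7008 genes with that many reads, 66.0% were called higher by the same test (limma on log2 of the rate as a fraction + 0.0005, Benjamini-Hochberg adjusted over all of them). The median difference over all these genes was 1.13 on the log2 scale, and the median rate of a library ran from 0.0574% to 0.0600% without 4sU and from 0.178% to 0.236% with DMSO and 4sU. A fold change on this scale understates that of low rates, and the coverage behind each rate is not in the table.

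**Figure D1:**
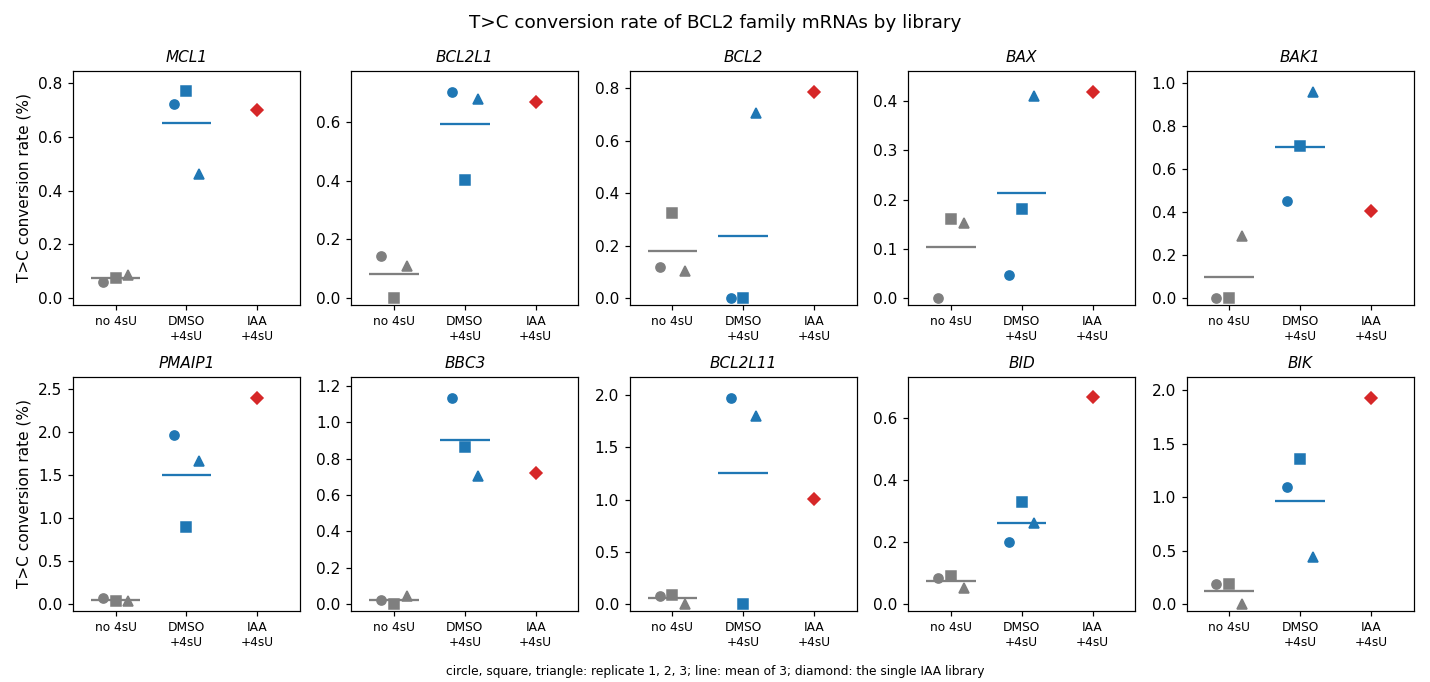
T>C conversion rate (percent of T positions read as C, vertical axes from 0, a scale for each gene) of the 10 BCL2 family genes in 3 libraries without 4sU, 3 with DMSO and 4sU and the single IAA library. Circles, squares and triangles are replicates 1, 2 and 3, lines are means, and PMAIP1 reaches 1.97% with DMSO and 4sU against at most 0.0677% without 4sU.

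Of the pro-survival members, MCL1 had the most reads behind it. MCL1, whose protein binds NOXA and BIM, lies at chr1:150533371-150552214 on the minus strand, and its rate was 0.0609%, 0.0744% and 0.0869% in replicates 1, 2 and 3 without 4sU and 0.721%, 0.770% and 0.462% with DMSO and 4sU. The groups were far apart, with replicate 3 the lowest of the labelled libraries. This was a difference of 2.47 on the log2 scale (SE 0.29, adjusted p = 0.000476). BCL2L1 (chr20:30252255-30311792, minus strand) gave 0.142%, 0% and 0.108% without 4sU and 0.702%, 0.403% and 0.677% with DMSO and 4sU, again without overlap, a difference of 2.45 (SE 0.52, adjusted p = 0.00564). BCL2 itself (chr18:60790579-60987361, minus strand) had 44 to 78 reads per library in these 6 libraries and fell under the minimum. Its rate was 0.117%, 0.324% and 0.103% without 4sU and 0%, 0% and 0.707% with it, so the groups overlapped and 1 labelled library alone had a rate above 0.

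The effectors were thinly read. BAK1 (chr6:33540324-33548070, minus strand) had rates of 0%, 0% and 0.290% without 4sU and 0.451%, 0.705% and 0.959% with DMSO and 4sU, which did not overlap. BAX (chr19:49458072-49465055, plus strand) had 0%, 0.161% and 0.152% without 4sU and 0.0465%, 0.181% and 0.410% with it, which did. Neither reached 200 reads on average. With no minimum of reads, BAK1 was called higher (adjusted p = 0.0273) and BAX was not, in a fit where 50.4% of 10853 genes were called.

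Among the BH3-only members, PMAIP1 and BBC3 had the largest tested differences of the family. PMAIP1, whose product NOXA binds MCL1, lies at chr18:57567228-57571537 on the plus strand and had 0.0677%, 0.0396% and 0.0374% without 4sU and 1.97%, 0.891% and 1.66% with DMSO and 4sU. The lowest labelled library was far above the highest unlabelled one, and the difference was 3.93 on the log2 scale (SE 0.34, adjusted p = 0.000176). BBC3, which encodes PUMA, a p53 target that binds all pro-survival members, lies at chr19:47724079-47736023 on the minus strand and had 0.0212%, 0% and 0.0433% without 4sU and 1.13%, 0.866% and 0.706% with it. This was a difference of 3.76 (SE 0.33, adjusted p = 0.00018). BID, which links death receptors to mitochondria once caspase-8 has cut it, was the least labelled of the 5, at chr22:18216904-18257536 on the minus strand. Its rate was 0.0834%, 0.0915% and 0.0510% without 4sU and 0.199%, 0.327% and 0.261% with it, a difference of 1.31 (SE 0.28, adjusted p = 0.00551) that sat close to the median of all genes.

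BCL2L11 and BIK had under 200 reads, and their rates scattered. BCL2L11 (chr2:111876955-111926021, plus strand) had 0.0746%, 0.0905% and 0% without 4sU and 1.97%, 0% and 1.80% with DMSO and 4sU, so 1 labelled library showed no conversion among its 52 reads while the other two stood among the highest values of the family. BIK (chr22:43506756-43525718, plus strand) had 0.186%, 0.190% and 0% without 4sU and 1.10%, 1.35% and 0.439% with it, and did not overlap. In the fit with no minimum of reads BIK was called (limma adjusted p = 0.0284), and BCL2L11 and BCL2 were not. Like BAK1, BIK entered that fit only through its labelled libraries, so its call is no independent support either. With the rates of a gene's intervals averaged and their reads summed, BCL2L11 was called higher (2.62, SE 0.33, limma adjusted p = 0.00137). That fit called 4516 of 7379 genes. BCL2L11 passed the minimum there only because its long intervals repeat the same reads, which the sum counted more than once. In replicate 2 with DMSO and 4sU, its averaged rate came from the 98-base interval alone, at 2.70% and 0.333 CPM. This call therefore adds no support to the rates above.

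Set by their mean rate with DMSO and 4sU, the members ran from PMAIP1 at 1.505% ± 0.553 (SD, n = 3) through BCL2L11 at 1.26% ± 1.09, BIK at 0.964% ± 0.473, BBC3 at 0.902% ± 0.216, BAK1 at 0.705% ± 0.254, MCL1 at 0.651% ± 0.165, BCL2L1 at 0.594% ± 0.166, BID at 0.262% ± 0.0640, BCL2 at 0.236% ± 0.408 to BAX at 0.212% ± 0.184. Neighbours in this order lay within their spread, except that BCL2L1 and BID did not overlap. Against the genes with at least 200 reads, the mean rate of PMAIP1 stood at percentile 98.1, BBC3 at 95.5, MCL1 at 91.9, BCL2L1 at 90.5 and BID at 64.3. The members under that minimum would stand at 97.4 (BCL2L11), 96.1 (BIK), 93.1 (BAK1), 58.1 (BCL2) and 52.1 (BAX). The 2 members with a nonamer were thus at opposite ends, PMAIP1 first and BCL2 next to last, with a BCL2 rate of 0% in 2 of the 3 libraries.

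The second question was whether total mRNA, new and old together, differed between cells with and without the pulse. BCL2L11, encoding BIM, was lower with the pulse, and it was the only member past the threshold in a fit without pairing of replicates. With the replicate number as a block, no member passed. The fit without pairing (limma on log2(CPM + 1) with TMM library sizes) called 1.6% of 11444 genes lower and 0.0% higher. At an unadjusted p under 0.05 there were 304 genes higher and 847 lower, and DESeq2 called 3 higher and 386 lower. All 10 members were tested here, and their median difference was 0.03 on the log2 scale against 0.04 over all genes. In bulk RNA, fewer cells that express a gene and less of its RNA per cell cannot be told apart.

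BCL2L11 stood at 5.68, 6.52 and 6.84 CPM without 4sU and at 3.29, 2.17 and 2.89 CPM with DMSO and 4sU. These are 115, 146 and 130 reads against 70, 52 and 58, and the groups did not overlap. The difference was -0.999 on the log2(CPM + 1) scale (SE 0.20, adjusted p = 0.0403). The difference kept its direction but missed the threshold with the replicate number as a block (limma -0.999, adjusted p = 0.0511, edgeR -1.24, adjusted p = 0.0571). It also missed without replicate 2 (-0.85, limma adjusted p = 0.426) and without replicate 3 (-0.96, limma adjusted p = 0.634). On simulated data, 22 of the 199 calls of the limma test without pairing were false.

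BBC3 and PMAIP1 did not pass the test but had the next largest negative differences of the family. BBC3 was at 16.1, 16.6 and 16.8 CPM without 4sU, with an SD of 0.401 CPM, and at 12.1, 7.20 and 8.46 CPM with DMSO and 4sU, a difference of -0.83 (SE 0.20, limma adjusted p = 0.0901). PMAIP1 was at 27.3, 35.5 and 36.1 CPM without and 22.4, 21.4 and 24.8 CPM with the pulse, a difference of -0.54 (SE 0.18, limma adjusted p = 0.285). Without replicate 1 both passed, at adjusted p of 0.00223 and 0.0101, in a limma fit that called 4.12% of genes lower. DESeq2 called BBC3 as well (adjusted p = 0.0158), with 3.37% of genes lower. The IAA library, which also had 4sU, was at 2.54 CPM for BCL2L11, 10.9 for BBC3 and 17.1 for PMAIP1, so for these 3 genes all 4 libraries with 4sU were below all 3 without, as for 7.45% of genes (8.95% with the 3 DMSO libraries alone). All 3 are BH3-only genes with mean rates of at least 0.902%, and BIK and BAK1, at 0.964% and 0.705%, differed in total mRNA by -0.02 (SE 0.21) and 0.08 (SE 0.34).

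**Figure D2:**
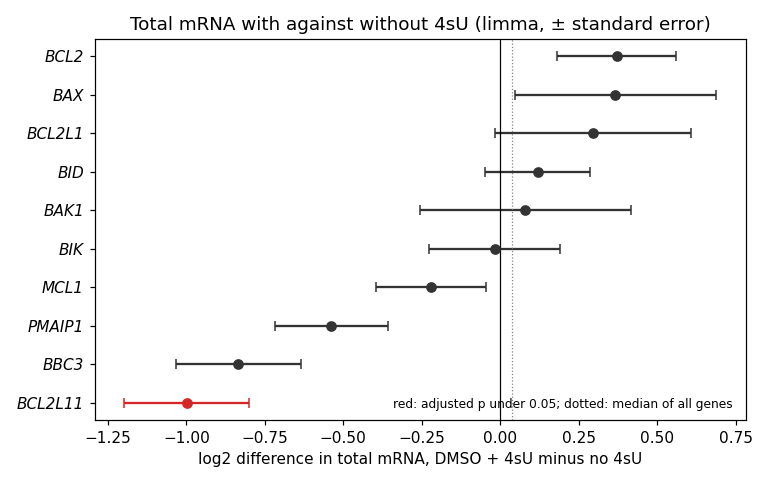
Difference in total mRNA between DMSO with 4sU and no 4sU (log2, horizontal axis) for each family member, with the standard error of the limma fit as bars and the median of all genes dotted. BCL2L11 (red, adjusted p under 0.05) is at -0.999, BBC3 at -0.83 and PMAIP1 at -0.54, and the other 7 members lie between -0.22 and 0.37.

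The pro-survival members and the effectors did not pass the test. MCL1 was at 292, 344 and 381 CPM without 4sU and 276, 304 and 311 CPM with it, overlapping, with a difference of -0.22 (SE 0.18, limma adjusted p = 0.741). BCL2 was at 2.18, 2.06 and 2.74 CPM without 4sU and at 3.05, 3.25 and 3.83 CPM with it, with the IAA library at 3.49. All 4 libraries with 4sU were above all 3 without, as for 9.58% of genes (10.4% with the 3 DMSO libraries alone), but the difference of 0.37 (SE 0.19) had a limma adjusted p of 0.571. BID was at 32.0, 25.2 and 26.4 CPM without and 35.9, 26.2 and 31.6 CPM with 4sU, and BIK at 4.00, 4.65 and 4.95 against 5.50, 3.46 and 4.98 CPM, both overlapping.

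BCL2L1, BAX and BAK1 did not pass the test for 4sU, and their values spread widely between replicates. BCL2L1 was at 25.5, 16.7 and 9.58 CPM in replicates 1, 2 and 3 without 4sU and at 28.3, 19.9 and 15.1 CPM with DMSO and 4sU. BAK1 was at 12.5, 4.56 and 4.95 CPM and 10.7, 6.33 and 5.58 CPM, and BAX at 9.15, 4.07 and 2.95 CPM and 9.11, 5.37 and 6.17 CPM. Replicate 1 was thus the highest for all 3 genes in both groups, while BCL2L1 was also higher with 4sU within each replicate number (0.30 on the log2 scale, SE 0.14 with the replicate block, limma adjusted p = 0.368). A limma test of the replicate number, chosen after these values were seen and so no independent support for the pattern, gave unadjusted p-values of 0.00173, 0.00328 and 0.0128 and adjusted ones of 0.149, 0.151 and 0.175, with 0.0% of 11444 genes called and 18.8% at an unadjusted p under 0.05. CD68, the one leukocyte marker detected, was also higher in replicate 1, at 7.27 and 5.59 CPM against 1.68 to 3.50 CPM in replicates 2 and 3. It was at 7.93 CPM in the IAA library. This was not particular to CD68. The basal marker LAMB3 was higher in replicate 1 as well, at 2360 and 1243 against 850 to 1030 CPM. The luminal marker CDH1 was lower there, at 73.2 and 110 against 131 to 196 CPM. The part of these markers in the differences was not tested.

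Beyond the 10 members, 43 further genes of the pathway were listed by role, and 37 had enough reads for the test of total mRNA. None was called by limma or edgeR, 2 had an unadjusted p under 0.05 by limma, and DESeq2 called 1, FBXW7, the F-box protein that targets MCL1 for degradation. In conversion rate, 2 of 7 tested genes among other BCL2 family genes rose, against the 66.0% of all genes, namely BCL2L2, encoding pro-survival BCL-W (2.45, SE 0.40), and BCL2L13 (1.49, SE 0.35), both named after their values were seen. Of the apoptosome and caspases 5 of 7 rose, of the inhibitors of apoptosis and their antagonists 6 of 7, of the death receptor arm 8 of 8, and of the regulators of MCL1 protein 4 of 5, and none was called lower.

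The third question, the one the experiment was built for, was what removing JUN does to these mRNAs. With 1 distinct IAA library there is no replicate check and no p-value, and each value is set beside the 3 libraries with DMSO and 4sU. In new RNA, the IAA library lay outside their range for 5 of the 10 members, against 48.8% of 11375 genes, once the median log2 rate of every library had been set to 0. PMAIP1, BID and BIK were above and BBC3 and BAK1 below. Without centring, a shift of 0.13 for the median gene, 5 members were above (BCL2, PMAIP1, BAX, BID and BIK) and BAK1 was below, against 45.1% of genes outside the range.

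**Figure D3:**
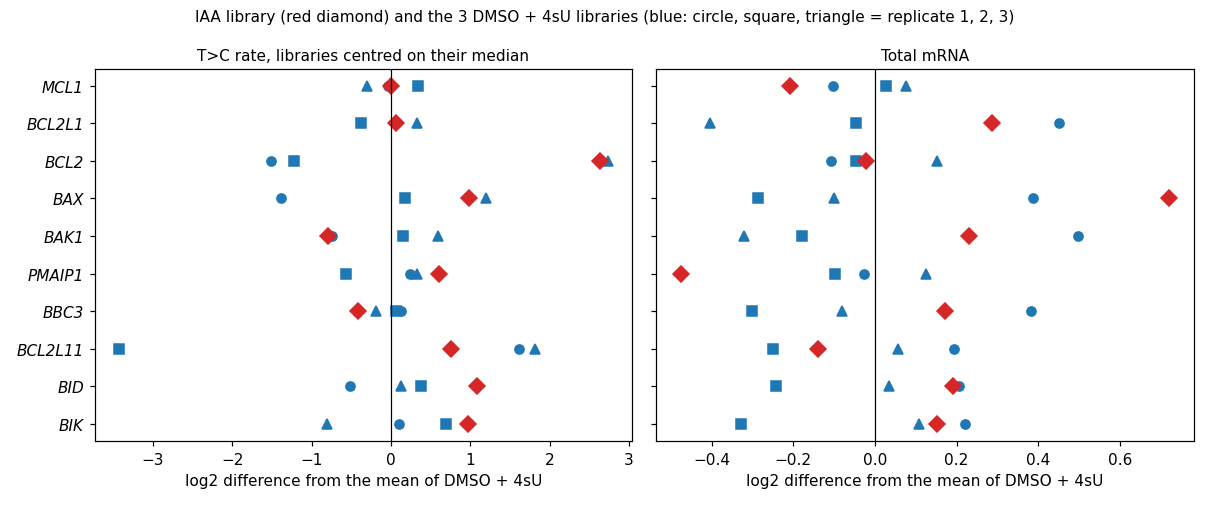
Log2 difference of each library from the mean of the 3 libraries with DMSO and 4sU, in conversion rate (left, centred) and total mRNA (right, TMM library sizes), with the IAA library as a diamond and replicates 1, 2 and 3 as circle, square and triangle. BID is 1.09 above the mean in rate, and PMAIP1 is above all DMSO libraries in rate and 0.48 log2 units below their mean in total mRNA.

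BID had a rate of 0.666% in the IAA library against 0.199%, 0.327% and 0.261%, so it was well above each of them. It was 1.09 log2 units above their mean, and after centring it was the only member both outside the range and at least 1 unit from the mean, as were 19.0% of all genes. Without centring there were 4 such members, BCL2 (2.76), BID (1.22), BAX (1.11) and BIK (1.10), against 17.6% of genes. Without DMSO replicate 1 it was 0.83 above. In total mRNA BID was at 37.6 CPM against 35.9, 26.2 and 31.6 CPM, above the range as deposited and within it after TMM scaling.

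In the 1 IAA library PMAIP1 lay above the DMSO range in rate and below it in total mRNA. Singly, 48.8% and 41.5% of genes lay outside the range, and the share of genes outside in both was not counted. Its rate was 2.40% in the IAA library against 1.97%, 0.891% and 1.66%, which is 0.60 above the mean after centring. Without DMSO replicate 2 it was 0.32 above. Its total mRNA was 17.1 CPM (95% Poisson interval 15.3 to 19.0, counting error only) against 22.4, 21.4 and 24.8 CPM. CPM and intervals here are as deposited. The difference was -0.48 after TMM scaling and -0.40 without it. MCL1, its binding partner's gene, was at 271 CPM (263.9 to 278) against 276, 304 and 311 CPM. As deposited, its interval reached replicate 1, and no interval was computed after TMM scaling. The difference of MCL1 was -0.21 after TMM scaling and -0.13 without it, and its rate of 0.701% was within the range. BAX was above the range in total mRNA, at 12.4 CPM (10.9 to 14.1) against 9.11, 5.37 and 6.17 CPM. Its difference was 0.72 after TMM scaling and 0.79 without it. BAX was also highest in replicate 1 without 4sU, at 9.15 CPM, and the replicate number of the IAA library is not known. The part of the replicate in this difference was not tested. PMAIP1, MCL1 and BAX were the 3 members outside the range in total mRNA, against 41.5% of genes. None was so by 1 log2 unit, as were 0.141% of genes.

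For the other members the IAA library gave little to set apart. BBC3 had a rate of 0.718% against 1.13%, 0.866% and 0.706%, within the range before centring and 0.41 below the mean after it. BAK1 had 0.405% against 0.451%, 0.705% and 0.959%, and BIK had 1.93% against 1.10%, 1.35% and 0.439%. BCL2L1 at 0.668%, BCL2L11 at 1.01%, BCL2 at 0.786% and BAX at 0.418% were within the range after centring. Without DMSO replicate 1, the IAA library lay outside the range in rate for 5 of 10 members, against 69.0% of genes. In total mRNA it did so for 8 of 10 members, against 75.5% of genes, 6 of them above: BCL2L1, BBC3, BAX, BAK1, BID and BIK. Of these, BCL2L1, BAX, BAK1 and BID were highest in replicate 1 both without 4sU and with DMSO and 4sU. The part of the replicate in these differences was not tested.

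JUN binds AP-1 sites, and the study asks how it meets YAP and TEAD at DNA, so the promoters of the family were searched on both strands for AP-1 (TGACTCA), CRE (TGACGTCA) and TEAD (GGAATG) motifs. RefSeq windows of 300 bases, from 250 before to 50 after a start, were found for 8 members in 13 windows (GRCh38.p14). MCL1 and BIK had no window and were not searched. An AP-1 and a TEAD motif occurred in 1 window, that of BBC3, and a CRE in none, while 4.95%, 14.03% and 1.85% of all 35116 windows held AP-1, TEAD and CRE motifs. The BBC3 window is printed because it is the only one of the 13 windows with either motif, in capitals, at chr19:47232618-47232917 in GRCh38.p14 on the minus strand.
BBC3: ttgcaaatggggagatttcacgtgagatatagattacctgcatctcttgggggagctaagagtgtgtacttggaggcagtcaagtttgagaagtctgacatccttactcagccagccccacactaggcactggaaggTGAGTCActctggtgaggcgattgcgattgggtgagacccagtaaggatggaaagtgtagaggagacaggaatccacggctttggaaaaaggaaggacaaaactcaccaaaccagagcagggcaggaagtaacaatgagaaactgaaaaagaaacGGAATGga

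Finally, the genes whose total mRNA ran most like that of MCL1 and PMAIP1 were sought among 7005 genes with at least 200 reads, as a description over 7 libraries that share depth and replicate structure. For MCL1 they were SAV1 (Pearson r = 0.982), CCAT1 (0.980) and MEF2A (0.980). For PMAIP1 they were PRR14L (0.984), ZC3H12C (0.971) and RICTOR (0.965).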

How the data were processed

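The members and gene lists were chosen with earlier results of these data known. With a Nextflow pipeline for SLAM-Seq, the authors processed QuantSeq 3′ libraries, and they deposited, per RefSeq 3′ interval, a T>C conversion rate (a fraction, with no coverage and no background subtracted) and a CPM, treated here as a signal of scaled reads. The aligner is not given in the sources used here, and the labels name hg19. The number of columns not used was 0.

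Identifiers were matched by a RefSeq gene table (GRCh38.p14, names only; 97.7% of rows). All non-zero deposited CPM (100%) were whole multiples of 1 read within 0.01 read, which gave read numbers and totals. Several intervals of a gene (19.7% of genes) were to be summed or averaged. After the rows were seen, the interval with most reads became the main choice, because nested intervals repeat reads, and summing or averaging the alternative.

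limma 3.58.1 (R 4.3.3; trend, robust) was fitted over all genes, on rates with a mean of at least 200 reads and on log2(CPM + 1) with at least 20, with Benjamini-Hochberg adjustment at 0.05. edgeR 4.0.16 (quasi-likelihood) and DESeq2 1.42.0 on the recovered reads were alternatives. Replicate numbers paired the libraries in total mRNA (correlations of deviations between groups 0.41, 0.33 and 0.50) and not in rates. On simulated data the total mRNA tests gave more false calls than the threshold aims at. These were 22 of 199 calls by limma, 20 of 197 by edgeR and 34 of 212 by DESeq2. The simulation of rates changed 200 of 7008 genes and assumed the number of T per read. In it the rate test recovered 96.5% of 9-fold changes but only 14% of 4-fold ones. In the data 66.0% of genes were called, so these shares do not give the recovery there. The 9-fold setting was added after the 4-fold result was seen. The minimum of 20 reads for the IAA comparison, the search of 3′ UTRs (GENCODE on GRCh37) and the test of the replicate number were chosen after seeing the data. All 10 members were named, with the 3 genes of highest correlation to MCL1 and PMAIP1 and, of each wider list, up to 4 genes past the threshold in total mRNA. Poisson intervals cover 95% of counting error only. Python 3.11.15 with pandas 2.3.3, numpy 2.4.6 and scipy 1.17.1 was used.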

Additional observations from a re-analysis of the deposited data

How the results depend on the processing

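The count of members with a higher conversion rate was 5 at other pseudocounts (4478 and 4595 of 7008 genes) and under the replicate block (4378 genes). It was also 5 without replicate 1, 2 or 3 (3152, 3547 and 3432 of 7008 genes). With the intervals of a gene averaged it was 6 of 7 tested (4516 of 7379 genes), where reads of nested intervals count more than once. With no minimum of reads it was 7 of 10 (5470 of 10853 genes). In total mRNA 1 member and 183 genes were called. With the replicate block these were 0 members and 217 genes by limma and 0 and 203 by edgeR. Without a filter on reads they were 0 members and 179 genes. DESeq2 gave 2 members and 389 genes. Leaving out a replicate number gave 0 to 3 members and 27 to 477 genes. With the IAA library added to the labelled group, chosen after seeing the data, limma called 2 members and 317 genes and edgeR 2 and 327. For the IAA library, 5 to 8 members were outside the range in rate (63.5% to 69.0% of genes) and 4 to 8 in total mRNA (49.6% to 75.5%) when 1 DMSO library was left out, and with at least 200 reads 3 of 5 in rate (49.3% of 7021 genes). No paired analysis was possible for IAA because its 1 library carries no replicate number. No member's difference that was called, or outside the DMSO range, in the main setting turned its direction. BCL2L11, within the range in IAA rate at 0.76, was below it at -0.62 with intervals averaged and at -0.95 without DMSO replicate 2. Members with under 200 reads limit what their rates can show.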
